A study of Saccharomyces cerevisiae with 24 samples.

Results

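The genes described here are 36 nuclear genes of mitochondrial respiration in the budding yeast Saccharomyces cerevisiae, out of 7126 genes in the deposited count table. They were chosen by name: 4 genes of complex II (succinate dehydrogenase), the 2 genes of cytochrome c, 9 of complex III (the cytochrome bc1 complex), 9 of complex IV (cytochrome c oxidase) and 12 of ATP synthase. The rule uses names and no measured value, and all 36 were among the 6253 genes that passed the filter on low counts and were tested.

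The study measured polyadenylated RNA by sequencing in cells grown with a high concentration of calcium chloride, and its title asks which expression changes depend on calcineurin, the calcium-activated protein phosphatase. The mutant, cnb1delta::KanMx, lacks CNB1, the regulatory subunit of calcineurin, and the other strain, WT, carries it. Both strains share everything else: they are haploid MATa cells of the BY4741 background with his3delta1, ura3delta0, leu2delta0 and lys2delta0, a HYG-TEFp-GFP(Y66F) insert on chromosome VI, and a synthetic medium whose nitrogen source was ammonium chloride. Each strain was sampled at 0 h, before CaCl2 was added, and at 12, 48 and 72 h in 200 mM CaCl2, with dilution every 12 h so that growth stayed logarithmic. The resulting 8 groups hold 3 libraries each, 24 in all. The later times have no untreated cultures beside them. An effect of CaCl2 and one of time in culture therefore cannot be told apart.

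Complex II passes electrons from succinate to ubiquinone, complex III passes them on to cytochrome c, and complex IV gives them to oxygen. ATP synthase uses the proton gradient that complexes III and IV build. Many carriers in the chain are iron cofactors: iron-sulfur clusters in SDH2 and in the Rieske protein RIP1, and heme in SDH3 and SDH4, in cytochrome c1 (CYT1) and in cytochrome c. In yeast that ferments glucose these genes are partly repressed, and the heme- and carbon-responsive HAP proteins activate many of them. When iron is scarce, TIS11 (Cth2) and CTH1 bind AU-rich stretches in the 3′ ends of many respiratory mRNAs and promote their decay.

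Library totals ran from 18843220 to 22250806 counts. CNB1 had 0 to 23 counts in the cnb1delta libraries, against 996 to 3320 in the WT libraries. The labels call the replicates time courses run in triplicate and do not say more, so p-values measure the spread between these samples. The 7 MATa-specific genes listed as markers of the labelled mating type fell, all 7 of them, in each of the 6 comparisons of a treated time with 0 h. Their summed level was 555 to 1228 CPM (counts scaled to a common library total) in treated cnb1delta libraries and 250.1 to 665 in treated WT libraries, against 2638 to 2684 in cnb1delta and 2795 to 3213 in WT at 0 h, and none was at 0. The replicate 1 libraries of 48 and 72 h had the highest general stress genes of their groups. In them these 25 genes averaged 0.79 and 1.20 (log2 over WT at 0 h) in cnb1delta at 48 and 72 h and 1.52 and 0.82 in WT. The other replicates of those groups lay between −0.72 and 0.49. In WT at 72 h replicate 3 (0.49) was nearer to replicate 1 than to replicate 2 (−0.16). Results at 48 and 72 h are therefore also given without those 4 libraries. Some replicate 2 libraries differed from their groups too, and those of 48 and 72 h stay in the fits without the 4 libraries. In cnb1delta, 5 stationary phase genes summed to 85.4, 187 and 84.2 CPM in replicates 1 to 3 at 0 h. At 12 h these sums were 77.7, 298 and 85.1, at 48 h 81.1, 192 and 61.1, and at 72 h 91.1, 129 and 86.6. In WT at 12 h the general stress genes averaged −0.18, −1.07 and −0.15 in replicates 1 to 3. In bulk RNA, fewer cells with a transcript and less of it per cell cannot be told apart. The 7 subunits encoded in mitochondrial DNA did not pass the filter, their highest count in any library being 1, and are not analysed here.

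Most of the respiratory genes fell after CaCl2 was added, in both strains. In cnb1delta cells, 25 of the 36 members were lower at 12 h than at 0 h, 29 at 48 h and 27 at 72 h, whereas of all genes tested 20.2%, 26.4% and 28.0% were lower (edgeR quasi-likelihood test, adjusted p under 0.05 over all genes). In WT cells 30, 30 and 28 members were lower, against 22.4%, 30.0% and 29.8% of all genes. The median log2 change of the members was −0.79, −1.14 and −1.28 at 12, 48 and 72 h in cnb1delta and −1.08, −1.38 and −1.33 in WT, while the medians of all genes lay between 0.01 and 0.08. The only member called higher in these 6 comparisons was ATP4 in WT at 72 h. Of all genes, 22.1%, 28.9% and 31.6% were higher in cnb1delta and 24.6%, 33.7% and 34.7% in WT. At an unadjusted p under 0.05, QCR6 in cnb1delta at 12 h was the only further member on the higher side, and DESeq2 called none higher in any of the 6. The groups did not overlap, in scaled CPM, for 30, 28 and 30 members in cnb1delta (66.7%, 67.2% and 69.1% of all genes) and for 32, 30 and 30 in WT (63.1%, 63.2% and 70.4%). The 3 times of a strain share its 0 h libraries.

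**Figure D1:**
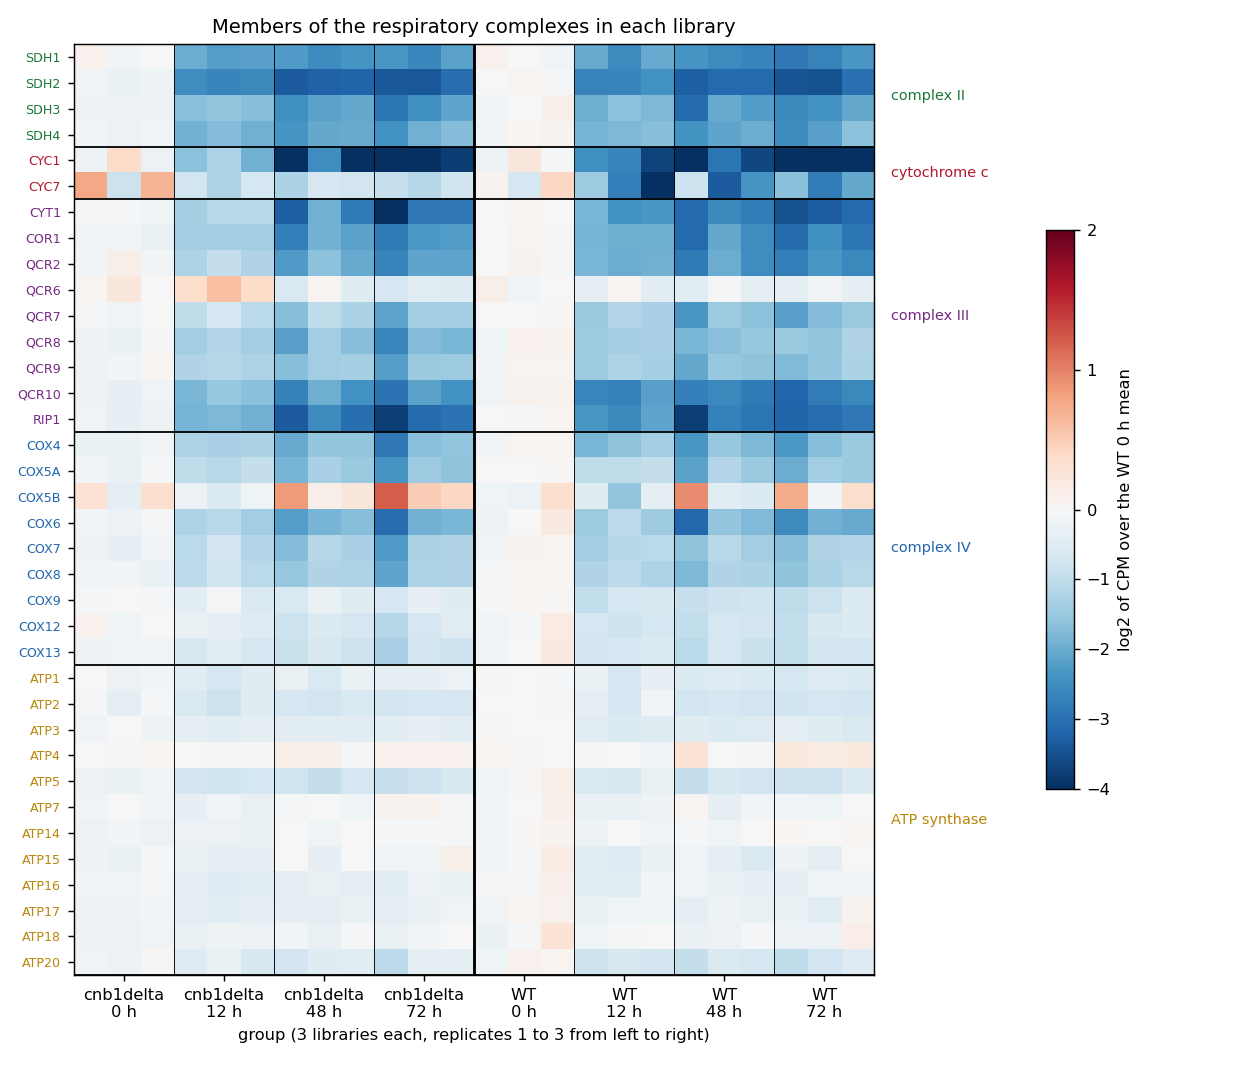
Level of each of the 36 members in each of the 24 libraries, as log2 of scaled CPM over the WT mean at 0 h; genes run down the page by complex, columns are cnb1delta on the left and WT on the right, each at 0, 12, 48 and 72 h with replicates 1 to 3 from left to right. The colour scale ends at −4 and 2, so lower values such as those of CYC1 at 72 h show the end colour. Most genes of the upper 4 blocks are low at 12 to 72 h, while most ATP synthase genes stay near 0. QCR6 in cnb1delta at 12 h and COX5B in cnb1delta at 72 h lie above 0.

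By their medians, the transcripts of cytochrome c and of complexes II and III fell furthest and those of ATP synthase least. At 72 h, complex II had 4 of 4 genes lower with a median log2 change of −2.29 in cnb1delta and 4 of 4 with −2.47 in WT. Both cytochrome c genes were lower in each strain, with medians of −2.85 and −3.36. Each of these medians is the midpoint of 2 genes with few counts, of which CYC1 fell much further than CYC7. Complex III had 9 of 9 genes lower in cnb1delta, median −2.23, and 8 of 9 in WT, median −2.53. Complex IV had 8 of 9 lower in both strains, with medians of −1.27 in cnb1delta and −1.31 in WT. ATP synthase had 4 of 12 lower in cnb1delta, median −0.14, and 6 of 12 lower and 1 higher in WT, median −0.21. At 12 and 48 h too, the medians of cytochrome c, complex II and complex III lay below that of complex IV in both strains, and that of ATP synthase was nearest 0. In cnb1delta at 12 h the medians were −1.40 for cytochrome c, −1.90 for complex II, −1.10 for complex III, −0.78 for complex IV and −0.26 for ATP synthase. These are descriptions of the lists, with no test between complexes.

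**Figure D2:**
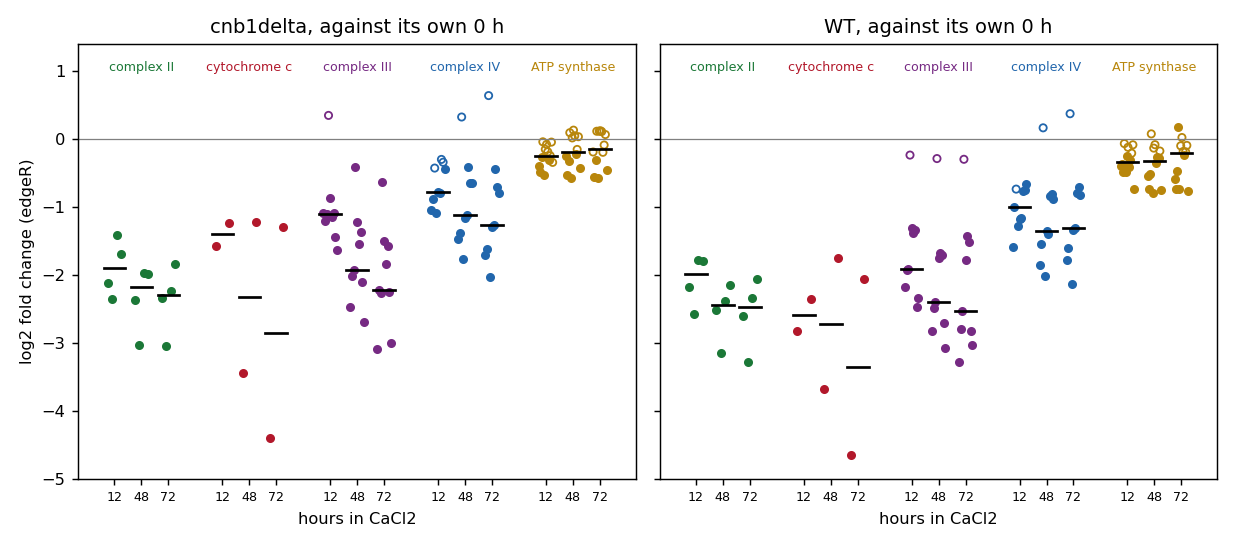
Log2 fold change (edgeR) of each member at 12, 48 and 72 h against 0 h of the same strain, cnb1delta in the left panel and WT in the right, grouped by complex. Filled points passed an adjusted p of 0.05, open points did not, and bars are medians of the complex. At 72 h the medians run from −2.85 for cytochrome c, which has only 2 genes, to −0.14 for ATP synthase in cnb1delta. In WT they run from −3.36 to −0.21.

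Levels were also summed over the genes of each complex. In TPM, the authors' unit that corrects for transcript length and library total, the complex II genes together had 294 ± 2.77, 106 ± 5.88, 77.4 ± 6.94 and 75.5 ± 10.3 at 0, 12, 48 and 72 h in cnb1delta. In WT they had 314 ± 13.9, 94.3 ± 6.91, 72.5 ± 8.18 and 72 ± 13.3 (mean ± SD, n = 3 for these and the following sums). Complex III summed to 765 ± 29.4, 463 ± 48.02, 320 ± 72.1 and 276 ± 44.5 TPM in cnb1delta. The WT sums were 780 ± 36.7, 325 ± 25.5, 282 ± 25.6 and 288 ± 15.8. Complex IV summed to 1284 ± 27.4, 986 ± 135, 858 ± 99.5 and 840 ± 85.01 TPM in cnb1delta, and in WT the sums were 1304 ± 63.2, 759 ± 52.7, 738 ± 26.5 and 741 ± 59.5. In each of these 3 complexes the sums at 12 h and later lay below those at 0 h by more than their SDs. The ATP synthase sum was 2300 ± 41.8, 2169 ± 21.99, 2340 ± 103 and 2472 ± 117 TPM in cnb1delta, and 2391 ± 74.7, 2181 ± 39.3, 2269 ± 307 and 2284 ± 113 in WT. Among these TPM sums it was the largest at every time and moved least. In CPM adjusted by edgeR's TMM factors the ATP synthase sum fell instead. In replicates 1 to 3 of cnb1delta it was 2430, 2152 and 2433 at 0 h and 1830, 1891 and 1968 at 72 h. In WT it was 2523, 2561 and 2641 at 0 h and 1770, 1830 and 1895 at 72 h. Among single genes at 0 h in WT the TPM level ran from 1.89 ± 0.619 for CYC7 and 19.3 ± 1.14 for CYT1 to 425 ± 23.2 for COX9 and 501 ± 13.9 for ATP2, the beta subunit of ATP synthase.

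In complex II the iron-sulfur subunit SDH2 fell furthest and the membrane anchor SDH4 least, by the WT change at 72 h. SDH2 (YLL041C) had, in replicates 1 to 3 of cnb1delta, scaled CPM (CPM adjusted by edgeR's TMM factors) of 55.3, 51.7 and 53.2 before treatment, 11.2, 9.91 and 10.3 after 12 h, 6.21, 6.59 and 6.70 after 48 h, and 6.05, 5.87 and 7.49 after 72 h. In WT it had scaled CPM of 61.7, 64.1 and 59.7 before treatment, 9.68, 9.997 and 11.6 after 12 h, 6.49, 7.12 and 7.21 after 48 h, and 5.64, 5.57 and 7.83 after 72 h. All 18 treated libraries lay far below all 6 libraries of 0 h, and the 3 replicates of each group lay close together. The log2 fold change at 72 h was −3.05 ± 0.12 (SE) in cnb1delta and −3.29 ± 0.12 in WT, with edgeR adjusted p of 1.09e-12 and 2.99e-13. SDH4 (YDR178W) had scaled CPM of 66.4, 61.4 and 65.04 before treatment, 19.5, 21.4 and 18.99 after 12 h, 13.9, 17.2 and 17.7 after 48 h, and 13.4, 19.03 and 21.4 after 72 h in cnb1delta. WT cells had scaled CPM of 66.1, 73.7 and 75.2 before treatment, 19.6, 20.7 and 21.8 after 12 h, 13.7, 16.8 and 18.1 after 48 h, and 12.4, 15.99 and 23.1 after 72 h. Its groups did not overlap with 0 h either, but at 72 h the replicate 1 library of each strain was the lowest. SDH4 changed by −1.84 ± 0.18 in cnb1delta and −2.06 ± 0.18 in WT on the log2 scale (edgeR adjusted p 2.01e-07 and 2.31e-08). The flavoprotein subunit SDH1 changed by −2.34 and −2.61, and the other anchor, SDH3, by −2.24 and −2.34, in cnb1delta and WT at 72 h, all called.

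Cytochrome c is the mobile carrier between complexes III and IV, and yeast has 2 genes for it: CYC1 (YJR048W), which encodes the main isoform, and CYC7 (YEL039C), whose isoform is known to be favoured when oxygen is scarce. Both were read from few counts. CYC1 had counts in cnb1delta of 214, 329 and 185 before treatment, 92, 126 and 72 after 12 h, 15, 56 and 13 after 48 h, and 3, 19 and 21 after 72 h. In WT its counts were 208, 291 and 234 before treatment, 49, 45 and 20 after 12 h, 8, 37 and 23 after 48 h, and 4, 16 and 15 after 72 h. Every treated library was below every library of 0 h, and the lowest counts were those of replicate 1 at 72 h in both strains. The fitted log2 fold change at 72 h was −4.40 ± 0.61 in cnb1delta and −4.65 ± 0.62 in WT (edgeR adjusted p 7.4e-06 and 3.1e-06). At 12 h it was −1.57 ± 0.51 in cnb1delta, adjusted p 0.0187, and −2.83 ± 0.55 in WT, adjusted p 0.000346. The cnb1delta call at 12 h ended when replicate 1 (adjusted p 0.0553) or replicate 3 (0.068) of cnb1delta at 12 h, or replicate 2 of cnb1delta at 0 h (0.0709), was left out. CYC7 had counts in cnb1delta of 30, 10 and 25 before treatment, 12, 9 and 12 after 12 h, 9, 14 and 12 after 48 h, and 12, 10 and 12 after 72 h. Its WT counts were 18, 11 and 23 before treatment, 7, 3 and 1 after 12 h, 13, 2 and 4 after 48 h, and 7, 3 and 5 after 72 h. Its groups overlapped at 72 h in cnb1delta, where the log2 fold change was −1.30 ± 0.47 (adjusted p 0.0242), and that call ended without replicate 1 or 2 of cnb1delta at 72 h or replicate 1 or 3 at 0 h (adjusted p 0.0554 to 0.116). Its cnb1delta calls at 12 and 48 h ended without any 1 of the 3 libraries of that time, or without replicate 1 or 3 of 0 h (adjusted p 0.0721 to 0.178 and 0.0535 to 0.152). In WT at 72 h CYC7 changed by −2.06 ± 0.54 (adjusted p 0.00258).

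Complex III held both some of the largest decreases and one gene that moved little. CYT1 (YOR065W), the cytochrome c1 subunit, had scaled CPM of 24.8, 23.9 and 22.8 before treatment, 10.1, 11.9 and 11.8 after 12 h, 2.66, 6.67 and 3.58 after 48 h, and 1.38, 3.50 and 3.54 after 72 h in cnb1delta. The WT libraries held scaled CPM of 25.1, 26.2 and 25.1 before treatment, 7.12, 4.72 and 5.05 after 12 h, 2.95, 4.25 and 3.63 after 48 h, and 2.28, 2.61 and 2.93 after 72 h. All treated libraries lay below all libraries of 0 h, and at 12 h each cnb1delta library was above each WT library. CYT1 changed by −3.09 ± 0.30 in cnb1delta and −3.29 ± 0.30 in WT at 72 h (log2, edgeR adjusted p 1.99e-07 and 4.28e-08). The Rieske protein gene RIP1 changed by −3.003 in cnb1delta and −3.03 in WT, and the core protein genes COR1 by −2.23 and −2.79 and QCR2 by −2.26 and −2.53. The small subunits QCR7, QCR8, QCR9 and QCR10 also fell, with log2 changes of −1.43 to −2.83 in WT at 72 h. QCR6 (YFR033C), the acidic hinge subunit, had scaled CPM of 39.1, 44.2 and 37.8 before treatment, 48.1, 57.2 and 48.9 after 12 h, 24.95, 39.4 and 27.2 after 48 h, and 23.7, 27.4 and 26.8 after 72 h in cnb1delta. In WT it had scaled CPM of 40.9, 34.96 and 37.4 before treatment, 29.2, 38.7 and 28.3 after 12 h, 27.4, 36.8 and 28.8 after 48 h, and 28.6, 34.6 and 28.99 after 72 h. At 12 h all cnb1delta libraries were above their 0 h range, and at 72 h they were below it. The WT ranges of 12 and 48 h overlapped that of 0 h. The log2 fold change of QCR6 was 0.35 ± 0.16 at 12 h (adjusted p 0.0776) and −0.64 ± 0.16 at 72 h (adjusted p 0.00188) in cnb1delta, and −0.24 ± 0.16 (adjusted p 0.227) and −0.30 ± 0.16 (adjusted p 0.103) in WT, all by edgeR. The cnb1delta call at 72 h ended when counts were scaled by library totals alone, at a log2 fold change of −0.35 and an adjusted p of 0.0857. The same scaling called QCR6 higher in cnb1delta at 12 h, at 0.55 (adjusted p 0.015), as did limma on log2(TPM + 1), at 0.54 (adjusted p 0.0137).

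In complex IV, COX6 (YHR051W) fell furthest in WT at 72 h and COX5B moved least. COX6 had scaled CPM of 64.3, 59.2 and 67.8 before treatment, 30.02, 32.5 and 27 after 12 h, 15.2, 19.3 and 21.6 after 48 h, and 8.52, 18.7 and 19.8 after 72 h in cnb1delta. WT cells had scaled CPM of 61.6, 69.8 and 79.3 before treatment, 26.4, 33.9 and 26.4 after 12 h, 7.97, 23.5 and 20.9 after 48 h, and 12.4, 18.4 and 17.4 after 72 h. Treated libraries were below 0 h throughout, and replicate 1 was the lowest of its group at 48 and 72 h in both strains. COX6 changed by −2.02 ± 0.30 in cnb1delta and −2.13 ± 0.31 in WT at 72 h (log2, edgeR adjusted p 1.81e-05 and 6.62e-06). COX4, COX7 and COX8 changed by −1.78, −1.34 and −1.31 in WT at 72 h, and COX9, COX12 and COX13 by −0.79, −0.70 and −0.82, all called lower.

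Subunit 5 of complex IV comes in 2 alternative forms, COX5A (YNL052W), used in air, and COX5B (YIL111W), known as the form of low oxygen. COX5A had scaled CPM of 74.6, 65.99 and 76.1 before treatment, 39.2, 36.9 and 41.5 after 12 h, 22.1, 32.4 and 28.3 after 48 h, and 15.5, 29.1 and 26.2 after 72 h in cnb1delta. The WT libraries held scaled CPM of 79.8, 78.7 and 80.7 before treatment, 39.3, 39.4 and 41.5 after 12 h, 18.3, 35.4 and 28.8 after 48 h, and 19.9, 30.4 and 28.3 after 72 h. Every treated library was below every library of 0 h, and COX5A changed by −1.62 ± 0.22 in cnb1delta and −1.61 ± 0.22 in WT at 72 h (log2, edgeR adjusted p 5.64e-06 and 3.38e-06). COX5B had scaled CPM of 20.6, 13.2 and 21.1 before treatment, 14.5, 11.4 and 14.9 after 12 h, 30.5, 18.3 and 19.8 after 48 h, and 39.2, 23.8 and 22.4 after 72 h in cnb1delta. WT libraries had scaled CPM of 15.1, 14.4 and 21.1 before treatment, 11.99, 5.69 and 12.7 after 12 h, 32.5, 12.5 and 11.5 after 48 h, and 28.3, 15.6 and 21.6 after 72 h. At 72 h each cnb1delta library was above each library of 0 h, while in WT the ranges overlapped, and replicate 1 was the highest at 48 and 72 h in both strains. COX5B passed the test in none of the 6 comparisons with 0 h; its log2 fold change at 72 h was 0.64 ± 0.36 in cnb1delta (adjusted p 0.134) and 0.37 ± 0.36 in WT (adjusted p 0.379). Scaled by library totals, it was called higher in cnb1delta at 72 h, at 0.96 (adjusted p 0.0407). With replicate numbers as a block, which the libraries support for WT at 12 h against 0 h, COX5B fell by 0.81 there (adjusted p 0.0197) and ATP17 fell by 0.21 (adjusted p 0.0455).

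By TPM, COX5B made up a growing share of COX5A and COX5B together. The share in replicates 1 to 3 of cnb1delta was 21.8%, 16.8% and 21.9% before treatment, 27.3%, 23.8% and 26.7% after 12 h, 58.3%, 36.4% and 41.5% after 48 h, and 72.0%, 45.4% and 46.4% after 72 h. In WT it was 16.1%, 15.6% and 21.0% before treatment, 23.6%, 12.8% and 23.7% after 12 h, 64.3%, 26.4% and 28.9% after 48 h, and 59.0%, 34.3% and 43.6% after 72 h. The lowest library at 48 and 72 h was above the highest of 0 h in both strains, and replicate 1, the library with the highest general stress genes in its group, had the highest share each time; the part of that difference among cultures in the share was not tested. The mean was 54.6% ± 15.1 in cnb1delta and 45.6% ± 12.5 in WT at 72 h, against 20.2% ± 2.91 and 17.6% ± 2.95 at 0 h (SD, n = 3 each). The corresponding share of CYC7 in CYC1 and CYC7 was 49.6% ± 25.9 in cnb1delta and 34.2% ± 25.2 in WT at 72 h, against 8.77% ± 5.13 and 6.63% ± 2.74 at 0 h. The libraries of 72 h had CYC7 shares of 79.4%, 33.7% and 35.5% in cnb1delta and 62.8%, 15.3% and 24.3% in WT, replicate 1 being the highest in both. Without replicate 1 the means at 72 h were 34.6% in cnb1delta and 19.8% in WT, and those of COX5B 45.9% and 38.95%; at 48 h they were 33.3% and 9.66% for CYC7 and 38.96% and 27.6% for COX5B. The CYC7 share rests on 1 to 30 CYC7 counts per library. How reads that match both copies of a pair were counted is not given in the sources used here.

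**Figure D3:**
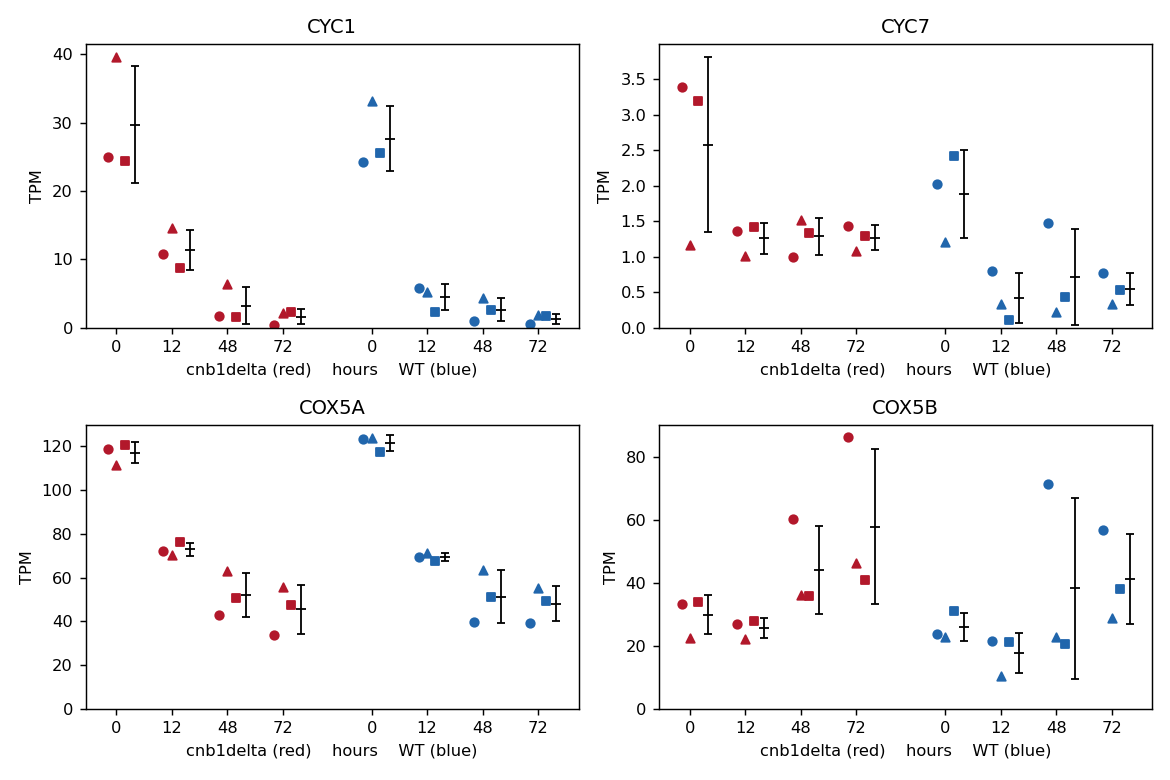
TPM of CYC1, CYC7, COX5A and COX5B in every library at 0, 12, 48 and 72 h, cnb1delta in red to the left of WT in blue; circles, triangles and squares are replicates 1, 2 and 3 and bars give the mean ± SD (n = 3). CYC1 and COX5A are lower at every time after 0 h, while COX5B at 48 and 72 h reaches its highest values in the replicate 1 libraries.

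ATP synthase changed least, and its direction depended on the scaling. ATP20 (YPR020W), subunit g, had scaled CPM of 31.1, 29.6 and 35.4 before treatment, 24.2, 28.98 and 22.5 after 12 h, 20.5, 25.1 and 26.1 after 48 h, and 16.8, 26.4 and 26.9 after 72 h in cnb1delta. In WT it had scaled CPM of 31.4, 37.1 and 36.4 before treatment, 19.8, 22.4 and 21.1 after 12 h, 17.9, 23.3 and 21.5 after 48 h, and 17.1, 20.4 and 24.4 after 72 h. Every treated library was below every library of 0 h. ATP20 changed by −0.46 ± 0.16 in cnb1delta and −0.76 ± 0.16 in WT at 72 h (log2, edgeR adjusted p 0.0218 and 0.000469), and the cnb1delta call ended without replicate 1 at 72 h (0.15) or replicate 3 at 0 h (0.0881). ATP14 (YLR295C), subunit h, had scaled CPM of 41.9, 45.9 and 42.1 before treatment, 41.2, 41.6 and 40.2 after 12 h, 49.2, 43.6 and 49.5 after 48 h, and 47.5, 46.97 and 46.96 after 72 h in cnb1delta. The WT values were 45.4, 50.1 and 51.5 before treatment, 42.6, 48.9 and 43.7 after 12 h, 46.7, 43.2 and 48.9 after 48 h, and 50.5, 48.5 and 50.4 after 72 h. Across both strains and all times its values stayed between 40.2 and 51.5, and the log2 fold change at 72 h was 0.12 ± 0.08 in cnb1delta and 0.02 ± 0.08 in WT (adjusted p 0.17 and 0.806). ATP2, the beta subunit, fell in all 6 comparisons, with changes of −0.55 in cnb1delta and −0.74 in WT at 72 h, as did ATP5, the oligomycin sensitivity protein (−0.57 and −0.74), and ATP3, the gamma subunit (−0.30 and −0.47). The WT call of ATP2 at 12 h ended without replicate 2 of 12 h (adjusted p 0.111). ATP1, the alpha subunit, had a log2 change of −0.19 in cnb1delta at 72 h (adjusted p 0.122) and of −0.59 in WT, the second of them called. ATP4, a stator subunit, had 201, 195 and 202 scaled CPM at 72 h in WT, against 184, 168 and 176 at 0 h. That is a log2 fold change of 0.18 ± 0.08 with an edgeR adjusted p of 0.0466, and the call ended without any 1 of the 3 WT libraries of 72 h or without WT replicate 2 or 3 of 0 h (adjusted p 0.0624 to 0.154), and without the late replicate 1 libraries.

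Scaling by library totals shifted the median of all genes to 0.22, 0.29 and 0.34 at 12, 48 and 72 h in cnb1delta and to 0.18, 0.38 and 0.38 in WT, where TMM scaling gave 0.01 to 0.08. Under it the ATP synthase medians were −0.05, 0.06 and 0.15 in cnb1delta and −0.18, 0.01 and 0.09 in WT, so their sign turned at 48 and 72 h, with 2, 2 and 2 genes lower and 0, 3 and 5 higher in cnb1delta and 4, 4 and 4 lower and 0, 1 and 2 higher in WT. The 24 genes of complexes II, III and IV and cytochrome c had medians of −0.89, −1.27 and −1.50 in cnb1delta and −1.32, −1.51 and −1.63 in WT under that scaling, with 18, 20 and 20 lower and 1, 0 and 1 higher in cnb1delta (QCR6 at 12 h and COX5B at 72 h) and 22 lower and 0 higher at each time in WT. Under TMM scaling 20, 23 and 23 of these 24 were lower in cnb1delta and 22, 22 and 22 in WT. Without the 4 late replicate 1 libraries, 27 members at 48 h and 27 at 72 h were lower in cnb1delta and 29 and 27 in WT, with medians of −1.02, −1.04, −1.21 and −1.19, and none was higher. CYC7 in cnb1delta at 48 h was among the calls that ended (adjusted p 0.0625). The 7 members with an iron cofactor of their own (SDH2, SDH3, SDH4, CYT1, RIP1, CYC1 and CYC7) were lower in each of the 6 comparisons, with medians of −1.57, −2.47 and −3.003 in cnb1delta and −2.34, −2.82 and −3.03 in WT.

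A short AU-rich sequence was present downstream of nearly all genes of the electron transport chain and of 1 ATP synthase gene. The letters TATTTAT, the DNA form of the core that TIS11 and CTH1 are known to bind, were searched on the coding strand in the 300 bases after each stop codon (R64 reference). They were present in 24 of the 36 members (66.7%), against 1021 of 5997 genes (17%): in 4 of 4 genes of complex II, 2 of 2 of cytochrome c, 9 of 9 of complex III, 8 of 9 of complex IV, where COX5B was the exception, and in 1 of 12 of ATP synthase, ATP20. For the members whose library values are given above, the first match after the stop codon is shown with 10 bases on each side, as R64 coding-strand sequence from 5′ to 3′. Capitals mark every complete core in the stretch, so that cores that overlap form 1 longer run. The window held 4 matches in SDH4, 3 matches in CYC7, 2 matches in SDH2, CYC1 and ATP20 and 1 match in CYT1, QCR6, COX6 and COX5A.
SDH2 (chrXII:52952-52978, minus strand, 163 bases after the stop codon): ctatgactatTATTTATTTATcattgg
SDH4 (chrIV:818607-818633, plus strand, 122 bases after the stop codon): tatttactagTATTTATTTATtattat
CYC1 (chrX:526777-526803, plus strand, 123 bases after the stop codon): tctaggtcccTATTTATtttttttaat
CYC7 (chrV:79600-79626, minus strand, 20 bases after the stop codon): tcggaggagaTATTTATtacttttatt
CYT1 (chrXV:448561-448587, plus strand, 203 bases after the stop codon): tcggccacccTATTTATtttttcactg
QCR6 (chrVI:224279-224305, minus strand, 31 bases after the stop codon): cctatattcaTATTTATtctgagtctt
COX6 (chrVIII:210229-210255, plus strand, 88 bases after the stop codon): ataagattcgTATTTATtttgtaaaac
COX5A (chrXIV:532364-532390, plus strand, 188 bases after the stop codon): attttttcttTATTTATttactcaaat
ATP20 (chrXVI:600317-600343, plus strand, 110 bases after the stop codon): atctcaattcTATTTATtttcttttca
No match was in the window of COX5B, ATP14 or ATP4. The distance from the stop codon ran from 20 bases in CYC7 to 203 in CYT1 among the 9 first matches. The only match of RIP1 lay 293 bases after its stop codon. The window has a fixed length and transcript ends were not mapped, so a distant match may lie outside the mRNA.

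By their medians, members with the core fell further than those without it. At 72 h, 24 of the 24 members with TATTTAT were lower in cnb1delta, median log2 change −1.77, and 23 of 24 in WT, median −1.92. Of the 12 members without it, 3 were lower in cnb1delta, median −0.01, and 5 in WT, median −0.19. QCR6, which holds a core 31 bases after its stop codon, was the member that did not pass in WT. Among the other genes tested, 982 held the core, of which 40.1% were lower in cnb1delta and 40.4% in WT at 72 h; of the 4700 without it 24.9% and 27.9% were lower. The medians of those other genes were −0.15 with and 0.13 without the core in cnb1delta and −0.12 with and 0.11 without in WT. Because holding the core nearly coincides with belonging to the electron transport chain rather than to ATP synthase, the sequence and the complex cannot be told apart within these 36 genes. The RNA of the binding proteins themselves was also measured, and both were singled out after their values were seen. TIS11 was higher in cnb1delta at 48 and 72 h (1.32 and 1.68) and was not called in WT at any time; against WT it was higher in cnb1delta by 2.52 at 12 h and 1.83 at 72 h. CTH1 was lower in each of the 6 comparisons, with a log2 change of −1.45 in cnb1delta and −1.93 in WT at 72 h.

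**Figure D4:**
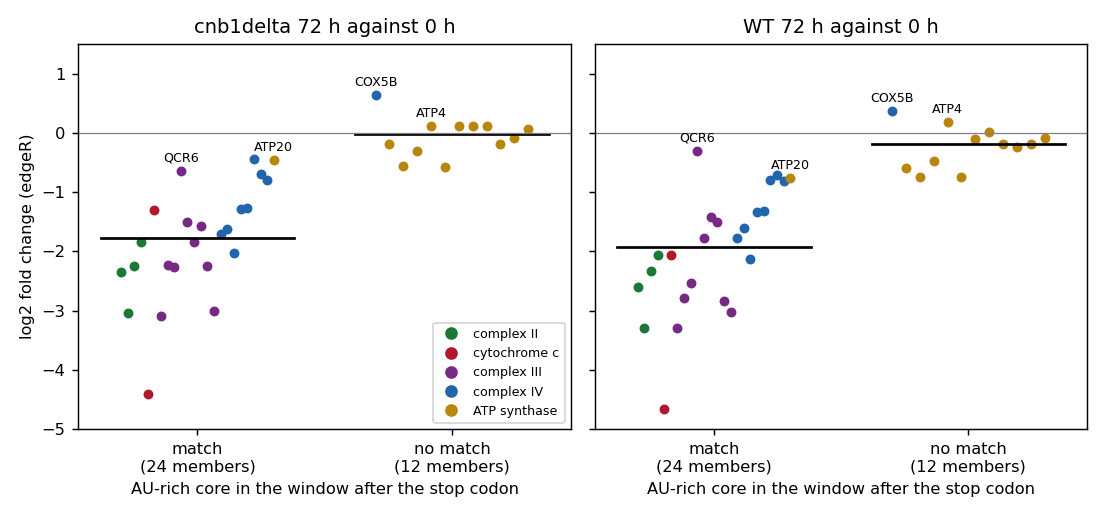
Log2 fold change (edgeR) at 72 h against 0 h of the 24 members with and the 12 members without TATTTAT in the 300 bases after the stop codon, cnb1delta on the left and WT on the right; colours mark the complex and bars are medians. The medians are −1.77 with and −0.01 without in cnb1delta and −1.92 with and −0.19 without in WT, and nearly all members without the core belong to ATP synthase.

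In the 300 bases before the start codon, the letters CCAAT, known as the core bound by the HAP2, HAP3, HAP4 and HAP5 activator, were searched on both strands. They were present in 31 of 36 members (86.1%), against 41.8% of 6001 genes. They were in 4 of 4 genes of complex II, 0 of 2 of cytochrome c, 7 of 9 of complex III, 8 of 9 of complex IV and 12 of 12 of ATP synthase. The longer ACCAAT was in 17 members (47.2%), against 15.4% of genes. Examples of the first match are shown as coding-strand R64 sequence with 10 bases on each side and the core in capitals, as CCAAT or, where it lies on the other strand, ATTGG. They include a gene of each kind of response: COX6 and COX5A fell, COX5B and ATP14 were not called, and SDH2 holds both orientations side by side.
SDH2 (chrXII:54077-54101, minus strand, 160 bases before the start codon): gcggcctcgcATTGGcCCAATtagc
COX6 (chrVIII:209409-209433, plus strand, 286 bases before the start codon): tccatacgagCCAATcagggccccg
COX5A (chrXIV:531545-531569, plus strand, 170 bases before the start codon): caaaaatcgtCCAATagacgttttc
COX5B (chrIX:154965-154989, plus strand, 247 bases before the start codon): atgacactcaCCAATttcttttttt
ATP14 (chrXII:722556-722580, minus strand, 197 bases before the start codon): catacacgaaCCAATtatgcatcat
The Hap1 letters CGGNNNTANCGG, on both strands, were in 1 member, QCR6, and in 8 of the 6001 windows (0.133%). The Rox1 core ATTGTTCT was in QCR2, COX5A and ATP7 (8.33% of members, 3.17% of genes). A match of letters is a description and not a measured binding site.

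The RNA of the HAP regulators themselves moved in several directions. HAP4, the activation subunit, changed by −0.91 in cnb1delta and −1.11 in WT at 48 h and was not called at 12 or 72 h, where it lay between −0.64 and −0.82. HAP2 was lower in all 6 comparisons, with changes of −0.55 in cnb1delta and −0.52 in WT at 72 h. HAP5 was higher at 72 h, by 1.14 in cnb1delta and 0.79 in WT, and HAP3 by 0.55 and 0.74. HAP1 RNA was higher at 72 h by 0.68 in cnb1delta and 0.85 in WT. HAP1 is known as a heme-responsive activator, but whether the HAP1 copy of this strain background encodes a working activator was not tested. ROX1, a repressor of low-oxygen genes, was not called in any of the 6.

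Between the strains, no member passed the test before treatment. At 0 h edgeR called 0 of the 36 members in cnb1delta against WT, and 0.0320% of all genes. At an unadjusted p under 0.05, 1 member was lower (ATP14, −0.18), and DESeq2 and limma called 0. At 12 h 5 members were higher in cnb1delta than in WT and 0 were lower, where 8.43% of all genes were higher and 6.96% lower; 4 of the 5 belong to complex III. At an unadjusted p under 0.05, 10 members were higher and 2 lower at 12 h. The complex III genes had a median log2 difference of 0.53, against 0.03 in complex II, 0.19 in complex IV, −0.12 in ATP synthase and 0.00 over all genes. Groups did not overlap for 19 members, and for 41.3% of all genes.

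The 5 members called at 12 h are the core protein gene QCR2, QCR6, QCR10, CYT1 and the small complex IV subunit COX9. QCR2 had 40.6, 48.7 and 40.9 scaled CPM in cnb1delta, against 26.4, 24.2 and 25.03 in WT, a log2 difference of 0.78 ± 0.19 (edgeR adjusted p 0.00699). QCR6 had 48.1, 57.2 and 48.9 scaled CPM in cnb1delta, against 29.2, 38.7 and 28.3 in WT, a difference of 0.68 ± 0.16 (adjusted p 0.00546). Their ranges did not overlap, and both calls remained whichever single library was left out. QCR10 had 7.24, 8.87 and 7.96 scaled CPM in cnb1delta, against 4.24, 3.90 and 5.70 in WT, a difference of 0.80 ± 0.21 (adjusted p 0.0114). CYT1 had 10.1, 11.9 and 11.8 in cnb1delta, against 7.12, 4.72 and 5.05 in WT, a difference of 0.998 ± 0.28 (adjusted p 0.02). COX9 had 79.8, 105 and 73.1 in cnb1delta, against 55.1, 66.8 and 70.04 in WT, a difference of 0.43 ± 0.14 (adjusted p 0.0367). These ranges did not overlap either, but the calls rested on few libraries: QCR10 lost its call without replicate 2 of cnb1delta (0.0565) or of WT (0.0578) at 12 h, and COX9 without replicate 2 of cnb1delta (0.256) or replicate 1 (0.153) or 2 (0.0611) of WT. CYT1 lost it without replicate 2 (0.0653) or 3 (0.0528) of cnb1delta or replicate 2 (0.0799) or 3 (0.0833) of WT. Without cnb1delta replicate 2 the count was 2. Without WT replicate 2 it was 2 higher and 1 lower, the lower one being ATP2 (−0.39, edgeR adjusted p 0.0353). CYC1 and CYC7 had larger differences at 12 h, 1.26 ± 0.54 and 1.48 ± 0.60, but few counts and adjusted p of 0.124 and 0.105. Without WT replicate 1 of 12 h the CYC7 difference was 2.32 and was called (adjusted p 0.0457).

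**Figure D5:**
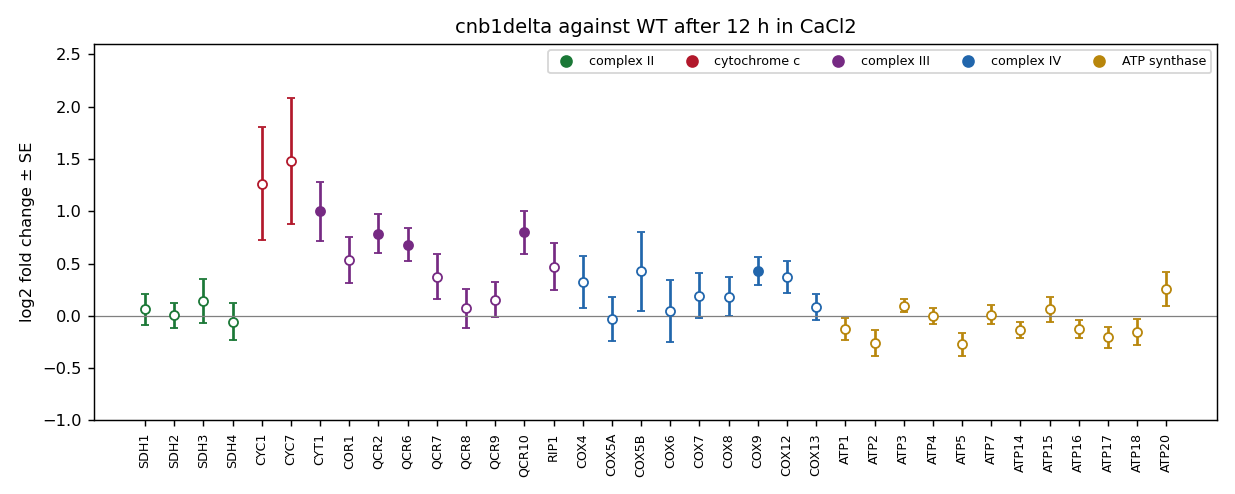
Log2 difference of cnb1delta against WT at 12 h (edgeR, points) with its SE (lines) for each of the 36 members, by complex; filled points passed an adjusted p of 0.05. The 5 filled points run from COX9 at 0.43 to CYT1 at 0.998, with QCR2, QCR6 and QCR10 between them, and the ATP synthase genes lie near 0.

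At 48 h edgeR called 0 members between the strains, where 4.89% of all genes were called, and at 72 h 0, where 9.12% were. At an unadjusted p under 0.05, 3 members were higher in cnb1delta at 48 h (QCR2, QCR7 and COX9), and at 72 h 2 were higher (COX9 and ATP1) and 1 lower (QCR8, −0.59 ± 0.19, adjusted p 0.0535). DESeq2 called 0 at 48 h and 1 at 72 h, QCR8, and limma 0 and 2. Same-numbered libraries of the strains deviated together at both times, and with the number as a block 3 members were higher in cnb1delta at 48 h (QCR2 0.46, COX9 0.38 and QCR7 0.48), while at 72 h COR1 was higher (0.36) and QCR8 lower (−0.62). QCR2 was also called at 48 h without WT replicate 2 (0.71, adjusted p 0.0284), and QCR8 at 72 h without cnb1delta replicate 2 (adjusted p 0.0437).

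Whether the response itself differed between strains was tested by the interaction, the change from 0 h in cnb1delta minus that in WT. A positive interaction can be a smaller fall in cnb1delta, as for QCR10 at 12 h, and need not be a stronger response. Without a replicate block, edgeR called 0 of the 36 members at 12, 48 or 72 h, and 1.82%, 0.192% and 1.04% of all genes. With the replicate number as a block within each time, edgeR called 8 members at 12 h (CYC1, CYT1, COR1, QCR2, QCR6, QCR7, QCR10 and RIP1). It called 1 at 48 h (QCR7) and 1 at 72 h (COR1), and all these interactions were positive. The blocked differences were 1.04 for QCR10 (edgeR adjusted p 0.013) and 0.81 for QCR2 (0.00246) at 12 h. They were 0.55 for QCR7 (0.0411) at 48 h and 0.56 for COR1 (0.0236) at 72 h. Same-numbered libraries of the strains deviated together at 0, 48 and 72 h, but not for all 3 numbers at 12 h (correlations of 0.0149 to 0.366). Whether a member counts as called in the interaction therefore depends on the block, which the libraries support at 48 and 72 h but not at 12 h. At an unadjusted p under 0.05, 8 members had a positive interaction at 12 h: CYT1, COR1, QCR2, QCR6, QCR10 and RIP1 of complex III, COX9 and ATP3. At 48 h 3 members did, and at 72 h 1 did. QCR10 had the smallest adjusted p at 12 h, 0.0672, for a difference of 1.03 ± 0.28. Its scaled CPM was 7.24, 8.87 and 7.96 at 12 h in cnb1delta, against 22.1, 20.4 and 23.1 at 0 h. In WT it was 4.24, 3.90 and 5.70 at 12 h, against 23.1, 26.8 and 26.9 at 0 h. QCR10 was the 1 member that DESeq2 (adjusted p 0.0149) and limma on log2(TPM + 1) (0.0416) called at 12 h, and edgeR called it without WT replicate 3 of 12 h (0.0435). DESeq2 and limma called 0 at 48 and 72 h.

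After 12 h the decline went on for part of the genes. Between 72 h and 12 h, 13 members were lower and 2 higher in cnb1delta, where 20.3% of all genes were called in either direction. In WT 10 were lower and 2 higher, where 23.2% of all genes were called. In both strains SDH2, CYC1, CYT1, COR1, QCR2, RIP1, COX5A and COX6 were lower; CYC1 changed by −2.83 in cnb1delta and −1.82 in WT, and CYT1 by −2.01 and −1.11. In cnb1delta SDH3, QCR6, QCR7, QCR8 and QCR10 were also lower, QCR6 with a change of −0.98 ± 0.16 (edgeR adjusted p 0.000764), and in WT SDH1 and ATP2. COX5B was higher in both strains, by 1.07 in cnb1delta and 1.11 in WT, along with ATP7 in cnb1delta (0.27) and ATP4 in WT (0.25). The COX5B call ended in cnb1delta without any 1 library of 12 h or without replicate 1 or 2 of 72 h (adjusted p 0.0562 to 0.216), and in WT without any 1 library of 12 h or without replicate 1 or 3 of 72 h (0.0603 to 0.168). Without replicate 1 of 72 h the cnb1delta count of 15 fell to 7, the calls of SDH2, CYC1, CYT1, COR1, QCR2, QCR6 and RIP1. In WT the count of 12 fell to 1, SDH2, without replicate 1 of 72 h, to 6 without replicate 3 of 72 h, and to 2 or 3 without replicate 1 or 3 of 12 h. Without all 4 late replicate 1 libraries together, 14 members were lower and 1 higher in cnb1delta, and 9 lower and 2 higher in WT. Scaling by library totals left 3 members lower and 2 higher in WT. It moved the share of all called genes that were higher to 70.4%, against 52.7% under TMM; for cnb1delta against WT at 12 h those shares were 72.6% and 54.8%, and for the comparisons with 0 h 70.1% to 77.6% and 52.2% to 53.8%.

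The other genes of the respiratory system, taken from lists of their functions, were counted at 72 h in the same way. Of all genes tested, 28.0% were lower and 31.6% higher in cnb1delta at that time, and 29.8% lower and 34.7% higher in WT. Of 6 dehydrogenases that feed ubiquinone or cytochrome c, 3 were lower in cnb1delta and 4 lower and 1 higher in WT. The internal NADH dehydrogenase NDI1 changed by −2.50 and −2.89, the external NDE1 by −2.24 and −2.36, and the other external enzyme, NDE2, was higher by 2.93 in WT. Of 9 tested genes of ubiquinone synthesis 4 were lower and 1 higher in cnb1delta and 5 lower and 2 higher in WT. Of 6 carriers and porins 4 were lower in each strain, among them the ADP/ATP carrier PET9 with changes of −0.99 in cnb1delta and −1.50 in WT and the phosphate carrier MIR1 with −1.15 and −1.34. Of 11 genes of the tricarboxylic acid cycle 9 were lower and 2 higher in cnb1delta and 8 lower and 1 higher in WT, with KGD1, of the oxoglutarate dehydrogenase complex, at −1.46 and −1.64. Of 9 further subunits, paralogs and inhibitors, 3 were lower and 1 higher in WT. Their mean log2 level over WT at 0 h was −0.67 in WT at 72 h. In cnb1delta it was −0.46 at 72 h, against 0.12 at 0 h. COX26, a small complex IV subunit, had 0, 2 and 0 counts at 72 h in WT, against 57, 50 and 49 at 0 h.

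Assembly factors and genes of the mitochondrial ribosome were called in both directions. At 12, 48 and 72 h, 20.2%, 26.4% and 28.0% of all genes were lower and 22.1%, 28.9% and 31.6% higher in cnb1delta, and 22.4%, 30.0% and 29.8% lower and 24.6%, 33.7% and 34.7% higher in WT. Of 32 complex IV assembly factors 9 were lower and 15 higher in cnb1delta at 72 h, and 14 lower and 8 higher in WT. COA2 changed by −2.36 and the heme A synthase COX15 by −2.01 in WT, and the membrane insertase OXA1 was higher by 1.30 in cnb1delta. Of 12 factors of complex III and cytochrome c 3 were lower and 5 higher in cnb1delta and 4 lower and 3 higher in WT, among them CYC3, which attaches heme to cytochrome c, higher by 1.43 in WT. Of 10 ATP synthase factors 2 were lower and 3 higher in cnb1delta and 2 lower and 1 higher in WT, and of 4 complex II factors 2 were higher in cnb1delta and 1 lower in WT. Of 70 mitochondrial ribosomal genes 5, 4 and 3 were lower and 14, 48 and 47 higher at 12, 48 and 72 h in cnb1delta, and 22, 13 and 14 lower and 3, 22 and 25 higher in WT. At 12 h, 30 of those 70 were higher in cnb1delta than in WT and 0 lower, and 12 of the 32 complex IV assembly factors were higher and 1 lower, where 8.43% of all genes were higher and 6.96% lower. The complex II factors SDH6 and SDH7 were higher in cnb1delta at 12 h too, by 1.20 and 0.57. Of 18 genes of the iron regulon 13, 15 and 15 were higher and 1, 2 and 2 lower in cnb1delta at 12, 48 and 72 h, and 11, 14 and 14 higher and 3, 2 and 3 lower in WT. LSO1 was higher by 7.87 and FIT1, a cell wall mannoprotein that retains siderophores, by 6.75 in WT at 72 h. Their part in the decrease of the respiratory genes was not tested.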

How the data were processed

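Polyadenylated RNA of 24 libraries was sequenced, 3 in each of 8 groups. The authors deposited whole-number counts per gene (7126 genes) and TPM (6744 genes). Per the submitters' processing notes, featureCounts, DESeq2 and build R64 were used. For the aligner, the strand setting and reads that match several genes, the method is not given in the sources used here. No member overlaps another annotated gene of R64. Library totals of 18843220 to 22250806 counts limit the genes with few reads, such as CYC1 and CYC7.

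Counts were analysed in R 4.3.3 with edgeR 4.0.16: filterByExpr by group (6253 genes kept), TMM scaling, and a quasi-likelihood F test in 1 model of the 8 group means with 16 residual degrees of freedom. P-values were adjusted by Benjamini-Hochberg over all genes within each of 15 comparisons, and genes under 0.05 were called. CPM in the text are scaled by TMM. SE is |log2 fold change| over the root of the F statistic. The deposited TPM were used to compare levels between genes, and for limma 3.58.1 on log2(TPM + 1) and log2(TPM + 0.1). DESeq2 1.42.0, other scalings and filters, a replicate block and leaving out libraries were the alternatives. The procedure was tested on simulated data. Sequences are from the R64 reference.

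Replicate numbers come from the sample titles. Same-numbered libraries deviated together, with every correlation over 0.1, in 4 comparisons of 2 groups and no other: 12 h with 0 h in WT (r of 0.228 to 0.396), and the strains at 0 h (r of 0.193 to 0.229), at 48 h (r of 0.162 to 0.569) and at 72 h (r of 0.314 to 0.689). Among the groups of the 12 h interaction, cnb1delta at 0 h and WT at 12 h also deviated together (r of 0.208 to 0.381). Replicates differed beyond sampling noise, with a chi-square per degree of freedom of 4.61 to 324.

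The members, lists and tests were chosen with earlier results of these data known. Library values are given for both isoform pairs and, in each complex, for the members with the largest and smallest WT change at 72 h. Genes outside the 36 were named from function lists: the HAP regulators, and up to 4 called genes of each other list with the largest change.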

Additional observations from a re-analysis of the deposited data

How the results depend on the processing

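Low counts of CYC1 and CYC7 and 3 libraries per group limit the precision. Of the single-gene results with 1 library left out, 3732 kept their side of the threshold, 137 lost and 19 gained a call and 0 reversed. Under the other alternatives these were 4868, 145, 131 and 16. A reversal is a change of sign in a result that at least 1 of the 2 fits called. Changes of sign in results that neither fit called were counted as kept, as were calls whose alternative adjusted p was missing. The reversals were of small ATP synthase changes: for ATP16 in cnb1delta at 48 h, ATP16 in WT at 48 h, ATP17 in WT at 48 h and ATP16 in WT at 72 h the log2 change was 0.024, 0.069, 0.036 and 0.068 under total counts, and 0.0017, 0.062, 0.043 and 0.042 in all 3 limma fits; the cause was not tested. Of members called, cnb1delta against WT at 12 h gave 3 with a mean of at least 10 CPM and 8 with limma on log2(TPM + 1), against 5. At 72 h, against 0, total counts gave 1 higher, while the 10 CPM filter and DESeq2 each gave 1 lower. There limma on log2(TPM + 1) and on log2(TPM + 0.1) gave 1 lower and 1 higher, and without the filter 1 higher. The interaction at 12 h gave 1 with DESeq2 and each limma fit, against 0. WT at 72 h against 12 h gave 5 with total counts and 7 with each limma fit, against 12. The replicate block gave 12 in cnb1delta against WT at 12 h (10 higher, 2 lower), 3 at 48 h (all higher) and 2 at 72 h (1 higher, 1 lower). In the interactions at 12, 48 and 72 h it gave 8, 1 and 1, all positive. At 12 h the same-numbered libraries of the strains did not all deviate together, while at 0, 48 and 72 h they did. The block changed no other count by over 1.5 times. With 1 library left out the counts were 23 to 25, 23 to 27 and 24 to 27 in cnb1delta at 12, 48 and 72 h against 0 h, 27 to 30, 27 to 31 and 27 to 29 in WT, 0, 2 to 5, 0 to 1 and 0 to 1 in cnb1delta against WT at 0, 12, 48 and 72 h, 0 to 1, 0 and 0 in the interactions, 7 to 20 in cnb1delta and 1 to 10 in WT at 72 h against 12 h.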
